A study of Saccharomyces cerevisiae with 15 samples.

Results

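mRNA abundance was compared between budding yeast sampled without glucose (-GLU) and with glucose (+GLU), over all genes of the deposited count table. The members are the 6 RNA libraries among 15 in the series, 3 for each glucose state, and 5703 of the 5704 genes in the table, because 1 row (YPR203W) holds values that are not whole and was left out. The other libraries of the series hold ribosome footprints, the mRNA fragments that ribosomes protect, and 6 of them serve here as a second readout. The question behind the series is what happens to protein synthesis when yeast loses its sugar.

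All libraries came from wild-type cells, labelled WT, of the strain background Sigma1278b, which can grow as filaments, and no mutant or transgene entered the comparison. Cultures were grown at 30 °C in YPD, a rich medium, to an optical density of about 0.7, and cycloheximide at 100 µg/ml, which stops ribosomes, was added in both states before harvest by centrifugation. The sources used here do not give the length of the starvation. Whether replicates came from separate cultures is not stated, and the p-values speak only of the spread among these libraries, part or all of which may be technical. Genes that mark a cells were found in every library (STE2, the receptor for alpha-factor, at 1225 to 1882 CPM with glucose and 167 to 191 without), where CPM is a count scaled to a common library total. Both alpha-factor genes, MF(ALPHA)1 and MF(ALPHA)2, had too few counts to be tested. Other markers were less clear. STE3, which marks alpha cells, was found in every library, at 11.6 to 30.3 CPM before scaling, and was not called. ASG7, which marks a cells, was low, at 6.04 to 7.59 CPM before scaling without glucose, and was not called either. Whether alpha cells were present was not tested.

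Total counts per library were 12560502, 2840314 and 2423486 for +GLU RNA and 11586943, 12480932 and 10591879 for -GLU RNA. Before library preparation, poly(A) RNA was caught on DynaBeads in +GLU RNA replicates 2 and 3 and on cellulose in the other 4 libraries. A step that removes rRNA is described for the first and second +GLU RNA libraries alone, and its part in the results was not tested. The selection material was also entered in the model as a term beside the glucose state. Counts from that fit are given where they differ by over 1.5 times or end a call. DynaBeads served only +GLU libraries, so with the term the glucose change sets the -GLU libraries against +GLU RNA replicate 1 alone. A call lost with the term can therefore reflect the selection material or the reliance on 1 +GLU library, and these cannot be told apart. Replicate pairs correlated across genes at Spearman's 0.924 to 0.981 with glucose and 0.887 to 0.975 without, the lowest between -GLU RNA replicates 1 and 3. In -GLU RNA replicate 3, 42.1% of genes lay above both other -GLU libraries and 43.3% below both, so results that move without it are given both ways.

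Yeast that has glucose ferments it, and keeps the genes for other carbon sources silent through repressors such as Mig1, while protein kinase A and the TORC1 kinase drive growth. When glucose runs out, the Snf1 kinase becomes active and the activators Cat8, Sip4 and Adr1 switch on genes for the use of acetate, lactate, glycerol and fatty acids. Cells also slow their division, recycle their own proteins and membranes, and rebuild their set of transporters.

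Of 5519 genes with enough counts to test, 1678 rose without glucose (30.4%) and 1665 fell (30.2%), by edgeR's quasi-likelihood test at an adjusted p of 0.05, so 60.6% of genes were called. Changes of at least 2-fold were called for 2469 genes (44.7%), 1200 up and 1269 down, and those of at least 16-fold for 148 up and 60 down. The log2 change (-GLU over +GLU) ran from -2.72 at the 5th percentile to 2.80 at the 95th, with a median of 0.01. For 3777 genes (68.4%), the 3 libraries of one state did not overlap the 3 of the other. Counts are scaled to a common total here, so these changes are relative to the average mRNA, a change in the total amount of mRNA per cell would not be seen, and fewer cells of a type and less RNA per cell cannot be told apart. Scaling by total counts alone, in place of TMM factors, moved the median of all genes to 0.15.

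**Figure D1:**
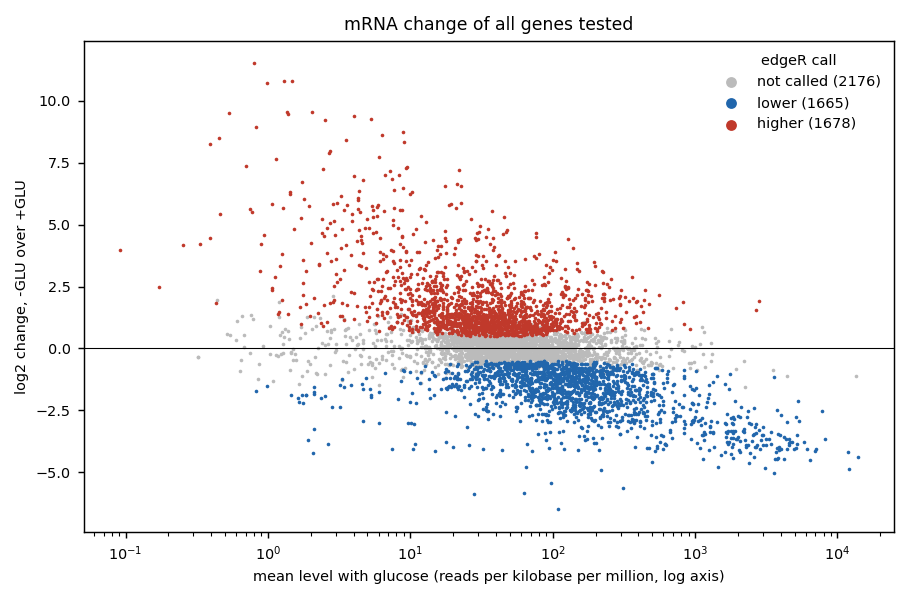
Change of each of the 5519 genes tested (log2, -GLU over +GLU, vertical axis) against its mean level with glucose in reads per kilobase, scaled to a common total (log axis), 1 point a gene, coloured by the edgeR call. Genes called higher lie mostly on the left, at low levels with glucose, and genes called lower mostly on the right.

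Genes that were scarce with glucose rose more often than abundant ones. In the lowest of 5 equal bins of genes by level per kilobase with glucose, 56.2% rose and 8.42% fell, and in the highest bin 9.24% rose and 66.2% fell. Those levels are part of the same contrast, so genes were also ranked by the mean over all 6 libraries, where 24.8% rose and 21.6% fell in the lowest bin and 33.3% rose and 42.2% fell in the highest. The pool of mRNA was spread over more genes in each -GLU library than in each +GLU library, though the gap was small within cellulose libraries. The number of genes that held 50% of all reads per kilobase was 302, 144 and 161 in the +GLU libraries and 497, 524 and 345 in the -GLU libraries. The values of 144 and 161 are from the DynaBeads libraries. The +GLU library made on cellulose, as all -GLU libraries were, stood at 302, beside 345 in -GLU RNA replicate 3. The part of the selection material in this was not tested. Of the 10 most abundant mRNAs per kilobase in each state, 1 was shared, CCW12, a cell wall mannoprotein, and of the 100 most abundant 10 were shared.

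Levels per kilobase are given here as TPM, reads per kilobase scaled to a common total. The most abundant mRNA without glucose on that scale was SPO24, a small gene named for sporulation, at 9620, 14110 and 18480 in the -GLU libraries and 4010, 2372 and 2026 in the +GLU libraries. Its change was a log2 of 1.92 ± 0.44 (SE, edgeR adjusted p = 0.00454, and 0.0772 with the selection material as a term). JEN1, the lactate and pyruvate permease, stood at 3298, 4647 and 3447 without glucose and at 5.82, 2.72 and 3.55 with it. It moved from place 5318 to place 9 in the order of levels. ICL1, isocitrate lyase of the glyoxylate cycle, moved from place 5104 to place 4, with levels of 8333, 6647 and 2009 without glucose and 8.06 to 10.3 with it.

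Among named genes outside the lists for the ribosome, translation, respiration, the tricarboxylic acid cycle, glycolysis, gluconeogenesis with other non-fermentable carbon, and stress, the largest rises were led by POX1 (YGL205W), the acyl-CoA oxidase that starts fatty acid breakdown in the peroxisome. POX1 was at 1.18, 1.21 and 2.28 CPM in the +GLU libraries and at 866, 812 and 1401 in the -GLU libraries, a log2 change of 9.5 ± 0.47 (SE, edgeR adjusted p = 5.75e-06). YAT1 (YAR035W), a carnitine acetyltransferase, went from 9.92, 8.07 and 9.13 CPM to 2987, 3345 and 3147, a log2 change of 8.44 ± 0.43 (edgeR adjusted p = 5.75e-06). In neither gene did the groups come near each other.

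PUT4 (YOR348C), the proline permease, went from 5.95, 9.28 and 4.11 CPM to 1747, 1850 and 948, a log2 change of 7.88 ± 0.50 (edgeR adjusted p = 8.22e-06). HXT5 (YHR096C), a hexose transporter, went from 2.86, 0.807 and 1.37 CPM to 1449, 1222 and 344, a log2 change of 8.93 ± 0.74. LEE1 (YPL054W), a zinc-finger protein, went from 0.881, 0 and 0.457 CPM to 294, 306 and 141. All these genes were lowest among the -GLU libraries in replicate 3. DPA10 (YLR307C-A) depended most on that library: it was at 851 and 460 CPM in -GLU RNA replicates 1 and 2 and at 5.86 in replicate 3, against 0.808, 0.404 and 0 with glucose. Its log2 change of 9.46 ± 1.75 (edgeR adjusted p = 0.00146) was not called with the selection material as a term (adjusted p = 0.0513). The other large rises were of POT1, SPS19, CRC1, CTA1 and CAT2, of fatty acid and carnitine metabolism, between 6.5 and 7.99 on the log2 scale, and of IGD1, an inhibitor of glycogen debranching, at 6.35 ± 0.37.

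The deepest falls were of genes with unlike roles. HO (YDL227C), the endonuclease that starts mating-type switching, went from 214, 294 and 235 CPM with glucose to 4.14, 1.78 and 2.21 without, a log2 change of -6.5 ± 0.37 (SE, edgeR adjusted p = 6.42e-06). AQR1 (YNL065W), a plasma membrane exporter, went from 134, 108 and 177 CPM to 3.05, 2.67 and 1.35, a log2 change of -5.86 ± 0.36. AAC3 (YBR085W), the ADP/ATP carrier of anaerobic cells, went from 104, 111 and 124 CPM to 3.59, 1.86 and 2.21, a log2 change of -5.45 ± 0.31. All -GLU libraries were far below all +GLU libraries in these 3 genes.

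AAH1 (YNL141W), adenine deaminase, went from 238, 350 and 283 CPM to 16.9, 9.51 and 2.02, a log2 change of -4.93 ± 0.63 (edgeR adjusted p = 0.000202). HTA2 (YBL003C), a histone H2A gene, went from 548, 745 and 878 CPM to 8.52, 14.3 and 55.4, a log2 change of -4.80 ± 0.69. CLB6 (YGR109C), an S-phase cyclin, went from 24.7, 23.0 and 15.5 CPM to 2.42, 0.446 and 0.673, a log2 change of -4.14 ± 0.59. -GLU RNA replicate 3 was lowest of its group for AAH1 and highest for HTA2. STD1, ARO4 (the first enzyme of aromatic amino acid synthesis), TPO2 (a polyamine exporter), IMD4 (an IMP dehydrogenase), EFM6 (a methyltransferase of elongation factor eEF1A) and RRT5 completed the 12, with log2 changes between -5.89 and -4.03.

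**Figure D2:**
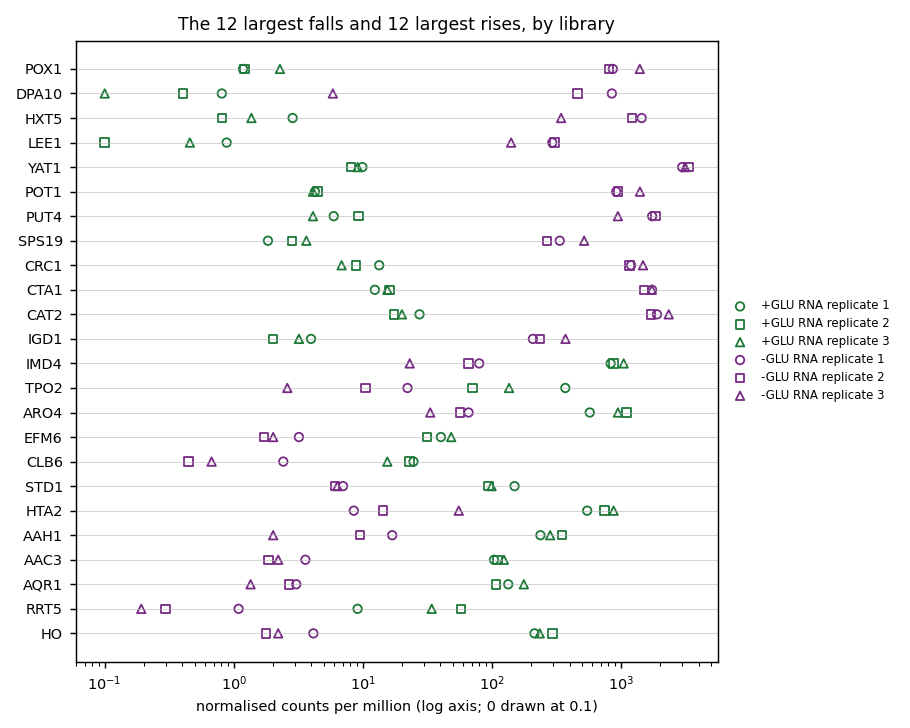
Normalised CPM (log axis, a value of 0 drawn at the left edge) of the 12 largest rises (upper rows) and 12 largest falls (lower rows) in each of the 6 RNA libraries, with +GLU in green and -GLU in purple and 1 marker shape a replicate. No gene overlaps between the states, because genes that overlapped were left out by the rule of choice. DPA10 in -GLU RNA replicate 3, at 5.86 CPM, is the -GLU point nearest to its +GLU points among the rises.

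Regulators of carbon use changed in both directions: of 28 genes of this group, 14 rose and 4 fell, with a median log2 change of 0.55. ADR1 (YDR216W), the activator of peroxisomal and alcohol genes, went from 17.7, 13.7 and 19.2 CPM to 775, 836 and 816, a log2 change of 5.58 ± 0.29 (edgeR adjusted p = 5.75e-06). CAT8 rose by 5.83 ± 0.34 and SIP4 by 5.88 ± 0.51, both activators of gluconeogenic genes. HAP4, the regulated subunit of the activator of respiratory genes, rose by 4.68 ± 0.33, more than its DNA-binding partners HAP2 (1.46 ± 0.24) and HAP5 (1.44 ± 0.23), while HAP3 stood at 0.06.

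Repressors of carbon genes did not move as one. MIG2 (YGL209W), a glucose-dependent repressor, went from 30.7, 49.2 and 35.2 CPM to 2.42, 1.71 and 3.56, a log2 change of -3.90 ± 0.37 (edgeR adjusted p = 5.26e-05). Its relative MIG1 stood at -1.0 ± 0.40 and was not called (edgeR adjusted p = 0.0565), and MIG3 stood at -0.13. RGT1, the repressor of hexose transporter genes, rose by 1.29 ± 0.20. The related glucose-signalling regulators STD1 and MTH1 exchanged places: STD1 went from 150, 94.4 and 99.5 CPM to 7.03, 6.09 and 6.35, and MTH1 went from 5.88, 8.07 and 5.02 CPM to 65.1, 72.3 and 118. The log2 changes were -4.15 ± 0.26 for STD1 and 3.76 ± 0.33 for MTH1 (edgeR adjusted p = 8.22e-06 and 3.99e-05).

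The genes for breaking down fatty acids in the peroxisome and carrying the acetyl units out on carnitine had the highest median of the 51 groups described here, which leave out the gluconeogenesis list and the other lists named above. Of 19 tested, 18 rose and 0 fell, with a median log2 change of 5.19, and the same 18 and 0 were called without -GLU RNA replicate 3 and with the selection material as a term. The steps of the cycle rose together, from POX1 through FOX2 (the second enzyme, 5.6 ± 0.37) to POT1 (the thiolase, 7.99 ± 0.37), as did CTA1, the peroxisomal catalase, at 6.84 ± 0.35. ANT1, the peroxisomal ATP carrier, was the member not called, at -0.15. The group held 0.0486%, 0.0358% and 0.0433% of all reads per kilobase with glucose and 1.17%, 1.19% and 1.29% without.

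Peroxins, the proteins that build peroxisomes, had a lower median: 19 of 27 rose and 1 fell, with a median of 0.89 (14 and 0 with the selection material as a term). PEX18 (YHR160C), a helper of the receptor for 1 class of imported enzymes, went from 1.84, 1.61 and 0.457 CPM to 64.3, 87.4 and 81.4, a log2 change of 5.66 ± 0.37 (edgeR adjusted p = 8.83e-06). PEX11, which acts in peroxisome division, rose by 2.95 ± 0.23. PEX21, the paralog of PEX18, stood at 0.65 and was not called. Of the activators of oleate-responsive genes, PIP2 rose by 2.54 ± 0.31 and its partner OAF1 by 0.65 ± 0.25, and the latter was not called with the selection material as a term (edgeR adjusted p = 0.432).

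Genes of self-digestion rose as groups. All 13 vacuolar hydrolases and their regulators on the list rose, with a median of 2.19, and 12 did with the selection material as a term. AMS1 (YGL156W), vacuolar mannosidase, went from 15.7, 9.28 and 6.39 CPM to 311, 363 and 432, a log2 change of 5.05 ± 0.36 (edgeR adjusted p = 1.25e-05). The main proteases PEP4, PRB1 and PRC1 rose alike, by 2.17, 2.18 and 2.19, and PBI2, the inhibitor of the protease made by PRB1, rose by 4.82 ± 0.27. The group's share of reads per kilobase went from 0.0804% to 0.107% with glucose to 0.67% to 0.786% without.

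Of 32 autophagy genes, 27 rose and 2 fell, with a median of 1.69 (21 and 1 with the selection material as a term). The receptors that choose cargo rose most. ATG39 (YLR312C), the receptor for parts of the nucleus, went from 1.69, 3.23 and 1.83 CPM to 183, 162 and 114, a log2 change of 6.22 ± 0.34 (edgeR adjusted p = 6.42e-06). ATG34, a receptor for vacuolar enzymes, rose by 4.34 ± 0.36 and ATG36, the peroxisome receptor, by 3.89, whereas the starting kinase ATG1 rose by 1.39 ± 0.22 and ATG8, the protein that coats the forming membrane, by 3.04 ± 0.37. The falls were of ATG5, at -0.96 ± 0.23, and ATG27, at -0.67 ± 0.21, and the latter was not called with the selection material as a term (edgeR adjusted p = 0.121).

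All 10 genes of the GID ubiquitin ligase, which marks gluconeogenic enzymes for breakdown once glucose returns, rose without glucose, with a median of 2.38. Without -GLU RNA replicate 3, 9 were called, and 8 with the selection material as a term. GID11 (YLR149C) went from 21.7, 11.3 and 9.13 CPM to 384, 567 and 778, a log2 change of 5.29 ± 0.44 (edgeR adjusted p = 2.88e-05). The conjugating enzyme UBC8 rose by 3.06 ± 0.31 and the catalytic subunit RMD5 by 3.04 ± 0.31. Among alpha-arrestins, the adaptors that bring the ligase Rsp5 to membrane transporters, 8 of 13 rose and 0 fell (6 and 1 with the selection material as a term). CSR2 went from 18.7, 7.26 and 7.76 CPM to 340, 468 and 486 (log2 change 5.16 ± 0.41), and ROD1, an adaptor for glucose-regulated transporters, stood at 0.12 and was not called.

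Transporters and enzymes for other nutrients rose more often than they fell. Of 24 amino acid and peptide permeases, 14 rose and 3 fell, with a median of 0.94 (8 and 2 with the selection material as a term). After PUT4, the largest rise was of AGP2 (YBR132C), a plasma membrane regulator of carnitine and polyamine uptake, from 19.5, 11.3 and 11.0 CPM to 660, 691 and 667, a log2 change of 5.55 ± 0.33. The general permease GAP1 rose by 1.68 ± 0.31 and the broad permease AGP1 by 2.73 ± 0.37, and both were lowest among -GLU libraries in replicate 3. The methionine permeases MUP3 (-1.53 ± 0.32) and MUP1 (-1.04) and the oligopeptide transporter OPT1 (-1.49 ± 0.21) fell. CAN1, the arginine permease, at 0.13, and LYP1, the lysine permease, at 0.20, were not called.

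In nitrogen catabolism, 16 of 29 genes rose and 2 fell, with a median of 0.67 (11 and 0 with the selection material as a term). The largest rises were of GDH3, GDH2 and PUT1. GDH2 (YDL215C), the NAD-dependent glutamate dehydrogenase, went from 172, 113 and 149 CPM to 2285, 3396 and 2481, a log2 change of 4.23 ± 0.38 (edgeR adjusted p = 4.44e-05), and PUT1, proline oxidase, rose by 4.23 ± 0.34. The ammonium-assimilating genes did not move as one. GDH3, an NADP-dependent glutamate dehydrogenase, rose by 4.24 ± 0.31, while its paralog GDH1 and GLT1, glutamate synthase, fell, by -2.22 ± 0.47 and -1.59 ± 0.34 on the log2 scale, but neither was called with the selection material as a term (edgeR adjusted p = 0.0692 and 0.0595). The ammonium permeases MEP1, MEP2 and MEP3 stood between -0.12 and 0.23 and were not called.

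Of 17 genes for galactose, maltose and polyols, 11 rose and 0 fell, with a median of 1.69. MAL31 (YBR298C), a maltose permease, went from 5.73, 4.44 and 7.76 CPM to 137, 157 and 225, a log2 change of 4.87 ± 0.31 (edgeR adjusted p = 8.03e-06). PGM2, a phosphoglucomutase that is also on the stress list, rose by 5.11 ± 0.66. In the galactose pathway GAL3, the galactose sensor, rose by 4.52 ± 0.48 and GAL4, the activator, by 3.53 ± 0.31. Of the enzymes specific to galactose, GAL1 rose by 1.69 ± 0.26, while GAL7 (0.77) and GAL10 (-0.46) were not called.

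Iron, phosphate and copper genes also rose more often than they fell. The shares that rose were 58.1%, 56.5% and 53.3%, beside 30.4% of all genes. The shares that fell were 12.9%, 8.7% and 6.67%, beside 30.2%. Of 31 iron genes 18 rose and 4 fell (11 and 4 with the selection material as a term). SIT1, a siderophore transporter, went from 57.8, 66.2 and 53.4 CPM to 431, 444 and 310, a log2 change of 2.74 ± 0.24 (edgeR adjusted p = 3.85e-05), and FET4, a low-affinity iron transporter, stood between 155 and 208 CPM with glucose and between 22.5 and 27.3 without, a log2 change of -2.90 ± 0.21. The partners of the high-affinity system parted, with the oxidase FET3 at 1.11 ± 0.31 and the permease FTR1 at -1.11 ± 0.34 (edgeR adjusted p = 0.0115 and 0.0198, 0.117 and 0.105 with the selection material as a term).

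Of 23 phosphate genes, 13 rose and 2 fell (6 and 2 with the selection material as a term). With the term 21.6% of all genes were higher and 24% lower, so the share of phosphate genes that rose was then near that of all genes. PHO89, a sodium-phosphate transporter, went from 2.57, 1.61 and 0.457 CPM to 57.2, 184 and 24.7, and PHO84, the high-affinity phosphate transporter, from 28.9, 70.2 and 18.7 CPM to 181, 245 and 274. Their log2 changes were 5.51 ± 0.84 and 2.58 ± 0.44 (edgeR adjusted p = 0.000498 and 0.000932). Copper, zinc and manganese genes counted 8 rises and 1 fall of 15 (5 and 1 with the selection material as a term). CTR3, a copper transporter, rose by 2.74 ± 0.41.

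**Figure D3:**
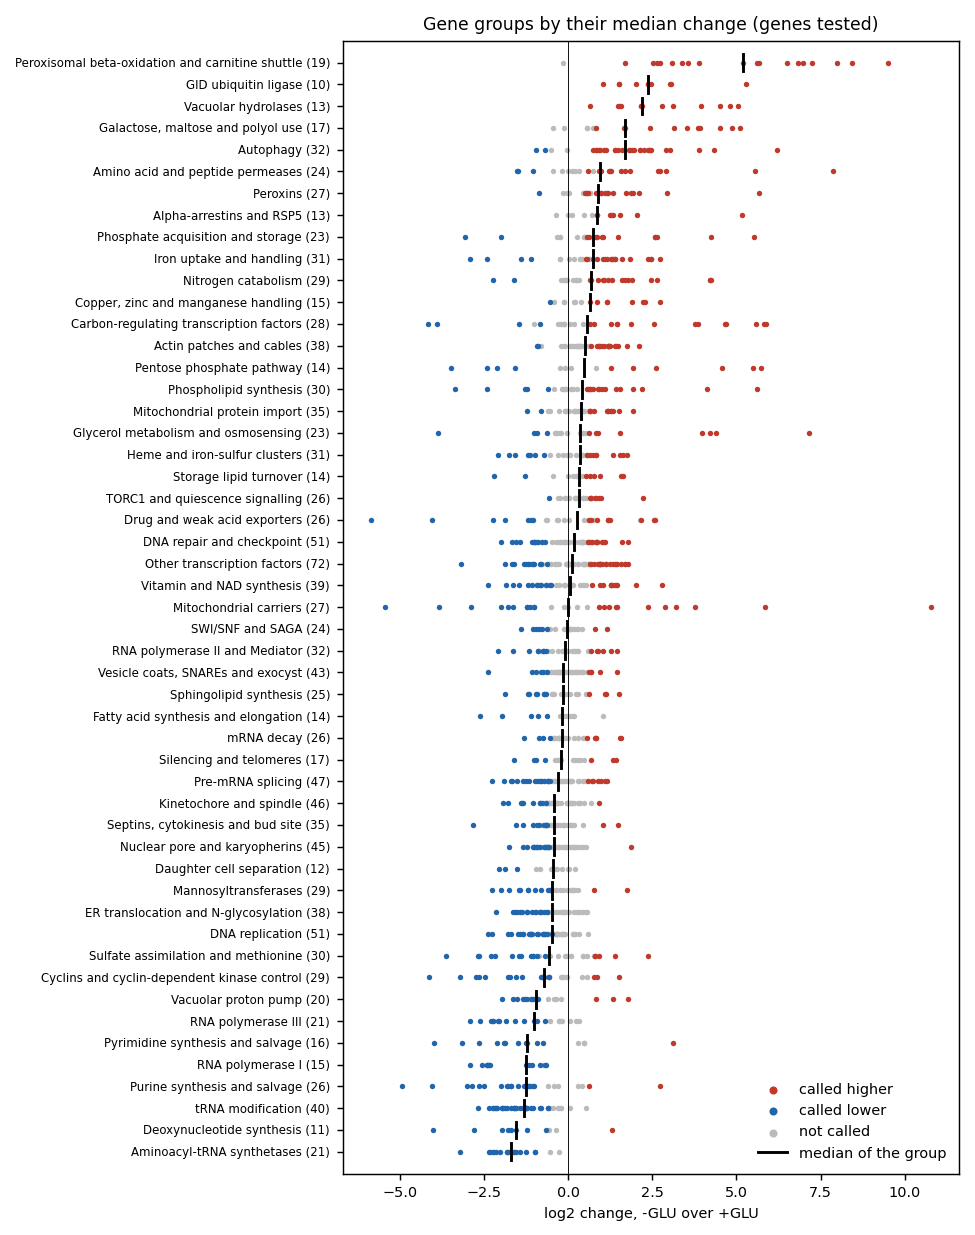
Log2 change (-GLU over +GLU, horizontal axis) of every tested member of 51 gene groups, 1 point a gene, in red where called higher, blue where called lower and grey where not called, with the group's median as a black bar and its number of tested genes in brackets. The peroxisomal group lies highest, with a median of 5.19, and the aminoacyl-tRNA synthetases lowest, with a median of -1.68.

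Genes that make the building blocks of RNA and charge its transfer RNAs fell. Of 21 aminoacyl-tRNA synthetase genes, 0 rose and 19 fell, with a median log2 change of -1.68. KRS1 (YDR037W), lysyl-tRNA synthetase, went from 764, 1124 and 1140 CPM to 158, 128 and 42.5, a log2 change of -3.20 ± 0.48 (edgeR adjusted p = 0.000468). Of 40 tRNA modification genes 0 rose and 32 fell, with a median of -1.31 (0 and 25 with the selection material as a term). TRM11, a tRNA methyltransferase subunit, went from 162, 150 and 141 CPM to 34.2, 31.0 and 5.38. In -GLU RNA replicate 3, 17 of the 21 synthetase genes and 37 of the 40 modification genes lay below both other -GLU libraries.

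RNA polymerase I, which transcribes rRNA, had 14 of 15 subunit and factor genes lower and 0 higher, with a median of -1.25. RPA34 (YJL148W), a subunit found only in this enzyme, went from 243, 383 and 344 CPM to 55.3, 51.5 and 20.7, a log2 change of -2.92 ± 0.38 (edgeR adjusted p = 0.000234). RNA polymerase III, which transcribes transfer RNA genes, had 13 of 21 lower and 0 higher, with a median of -1.01, led by RPC11 at -2.91 ± 0.25. RNA polymerase II and Mediator, which serve mRNA genes, had 6 higher and 9 lower of 32, with a median of -0.10. With the selection material as a term the last counts were 1 and 3. The largest rises were of SSN8 and SSN2, of the Mediator kinase module, by 1.44 ± 0.35 and 1.28 ± 0.18, and the first was not called with the selection material as a term (edgeR adjusted p = 0.0884). The deepest falls were of ROX3 and SRB2, of the Mediator head module, at -2.08 ± 0.22 and -1.62 ± 0.25.

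Nucleotide genes followed the same direction. Of 26 purine genes, 2 rose and 19 fell, with a median of -1.26, and of 16 pyrimidine genes 1 rose and 11 fell, with a median of -1.23. The guanine branch fell furthest after AAH1: IMD4 went from 833, 880 and 1051 CPM to 79.8, 66.0 and 23.1, and GUA1, GMP synthetase, stood at -3.0 ± 0.52. Among genes of the common pathway, ADE4, the first enzyme, fell (-1.21), and ADE2 was not called (-0.59 ± 0.26, edgeR adjusted p = 0.0736). The rises were of the degrading or converting enzymes GUD1, guanine deaminase, at 2.74 ± 0.30, and AMD1, AMP deaminase, at 0.62 ± 0.23, the latter not called with the selection material as a term (edgeR adjusted p = 0.275). In pyrimidine synthesis URA1, dihydroorotate dehydrogenase, went from 1357, 1651 and 1864 CPM to 108, 105 and 97.3, a log2 change of -3.97 ± 0.31 (edgeR adjusted p = 2.03e-05).

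Of 11 deoxynucleotide genes, 1 rose and 8 fell, with a median of -1.54. RNR1, the large subunit of ribonucleotide reductase, went from 459, 253 and 338 CPM to 108, 102 and 57.9, a log2 change of -1.97 ± 0.32 (edgeR adjusted p = 0.000675), and its paralog RNR3 was the member that rose, at 1.30 ± 0.32 (not called with the selection material as a term, adjusted p = 0.0708). Of 51 DNA replication genes 0 rose and 21 fell (41.2%, beside 30.2% of all genes), with a median of -0.49. With the selection material as a term 13 fell (25.5%, beside 24% of all genes lower and 21.6% higher in that fit), a share near that of all genes. The clamp POL30 stood at -2.26 ± 0.26 and the origin-licensing factor CDC6 at -2.37 ± 0.45.

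Of 29 cyclin and cyclin-dependent kinase genes, 3 rose and 16 fell, with a median of -0.70 (2 and 10 with the selection material as a term). Besides CLB6, the mitotic cyclin CLB1 (YGR108W) went from 320.0, 240.0 and 289 CPM to 38.7, 23.2 and 29.2, a log2 change of -3.22 ± 0.26 (edgeR adjusted p = 2.62e-05), and CLB2 stood at -2.72. CLN3, the cyclin that starts the cycle in G1, was at 92.9, 56.9 and 59.8 CPM with glucose and 97.7, 70.3 and 37.1 without, and was not called (log2 change -0.04 ± 0.35). The rises were of CDH1, which directs breakdown of mitotic cyclins, at 0.85 ± 0.19, of PCL7, a cyclin of glycogen control, at 1.52 ± 0.24, and of SWI4, an activator of G1 genes, at 0.76.

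Of 10 histone genes 7 fell and 1 rose, the linker histone HHO1 at 0.99 ± 0.22. In all 10, -GLU RNA replicate 3 lay above both other -GLU libraries, and HHT2, a histone H3 gene, stood at 205, 324 and 838 CPM in the -GLU libraries against 528 to 751 with glucose and was not called (log2 change -0.49 ± 0.47). HHF1 and HHF2, which both encode histone H4, are near-identical in sequence, so reads may be split between them and each value is uncertain. Of 46 kinetochore and spindle genes 1 rose and 10 fell, and of 35 septin, cytokinesis and bud site genes 2 rose and 10 fell. With the selection material as a term these counts were 0 and 8, and 1 and 7. Without the term, the shares that fell were 21.7% and 28.6%, below the 30.2% of all genes that fell. The shares that rose were 2.17% and 5.71%, beside 30.4% of all genes. With the term, both shares that fell were also below the 24% of all genes lower in that fit.

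The vacuolar proton pump went against the vacuolar hydrolases, though less so with the selection material as a term. Of 20 genes 3 rose and 13 fell, with a median of -0.95. VMA7 (YGR020C), a subunit of the peripheral part, went from 196, 346 and 236 CPM to 54.1, 55.3 and 91.2, a log2 change of -1.95 ± 0.30 (edgeR adjusted p = 0.000555). The rises were of RAV1 (1.77 ± 0.28) and RAV2 (1.33 ± 0.20), which reassemble the pump, and of STV1 (0.82 ± 0.21), its Golgi isoform. With the selection material as a term 5 fell and 2 rose. That was 25.0% lower, near the 24% of all genes lower in that fit, whereas without the term it was 65.0%, beside 30.2%. In -GLU RNA replicate 3, 16 of the 20 genes lay above both other -GLU libraries.

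Lipid genes were mixed. Of 30 phospholipid genes 15 rose and 5 fell (8 and 5 with the selection material as a term). INO1 (YJL153C), which makes inositol phosphate, went from 19.5, 19.0 and 13.7 CPM to 1238, 1216 and 101, a log2 change of 5.6 ± 0.86 (edgeR adjusted p = 0.000516). INM1 and PIS1, which act after it on the way to phosphatidylinositol, fell, at -3.35 ± 0.24 and -2.42 ± 0.29. OPI3, a methyltransferase of phosphatidylcholine synthesis, rose by 2.21 ± 0.34 and PAH1, the phosphatase that turns phospholipid precursors towards storage fat, by 1.94 ± 0.32. Of 14 genes of fatty acid synthesis and elongation, 0 rose and 5 fell (0 and 3 with the selection material as a term), led by the elongases ELO3 (-2.60 ± 0.36) and ELO2 (-1.97 ± 0.29).

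FAS1, a fatty acid synthase subunit, was at 1748, 1628 and 2047 CPM with glucose and at 2509, 3013 and 503 without, and was not called (log2 change 0.15 ± 0.58). Its -GLU libraries 1 and 2 lay above and replicate 3 below all +GLU libraries. Mitochondrial carriers divided evenly, with 11 of 27 higher and 11 lower (9 and 7 with the selection material as a term). SFC1 (YJR095W), the succinate-fumarate carrier, which is also on the gluconeogenesis list and so not among the 12 largest rises above, went from 0.881, 1.61 and 3.20 CPM to 3984, 3218 and 1178, a log2 change of 10.79 ± 0.81 (edgeR adjusted p = 1.67e-05). The phosphate carrier MIR1 (3.20 ± 0.30) and the main ADP/ATP carrier PET9 (2.89 ± 0.34) rose, and the oxaloacetate carrier OAC1 (-2.88 ± 0.31) and the citrate carrier CTP1 (-1.77 ± 0.23) fell. MPC3, a subunit of the pyruvate carrier, rose by 5.84 ± 0.50.

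Of 23 genes for glycerol metabolism and osmosensing 8 rose and 4 fell, with a median of 0.37 (6 and 2 with the selection material as a term). The shares were 34.8% higher, near the 30.4% of all genes, and 17.4% lower, beside 30.2%. GUT2 (YIL155C), the mitochondrial glycerol-3-phosphate dehydrogenase, likewise on the gluconeogenesis list, went from 14.2, 21.8 and 18.7 CPM to 2039, 2177 and 3601, a log2 change of 7.17 ± 0.47 (edgeR adjusted p = 8.89e-06), and GUT1, glycerol kinase, rose by 4.39 ± 0.31. GPP1, glycerol phosphatase, went from 478, 630 and 663 CPM to 23.0, 33.2 and 66.3, a log2 change of -3.85 ± 0.42. Of the other genes that make glycerol, the glycerol-3-phosphate dehydrogenase GPD1 rose by 1.54 ± 0.52 (edgeR adjusted p = 0.0287, and 0.287 with the selection material as a term), and GPD2 (-0.22) and GPP2 (-0.25) were not called. The kinase HOG1 of the osmotic stress pathway stood at -0.38 and was not called.

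Sulfur genes fell more often than they rose, with 13 of 30 lower and 5 higher and a median of -0.57. The shares were 43.3% lower and 16.7% higher, beside 30.2% and 30.4% of all genes. With the selection material as a term 6 of 30 fell and 4 rose. The share that fell was then below the 24% of all genes lower in that fit. The S-adenosylmethionine synthetases fell, SAM1 at -2.63 ± 0.33 and SAM2 at -2.28 ± 0.30. SAM4, which has a near-identical copy in the genome and is uncertain for that reason, stood at -3.63 ± 0.45. The sulfate permease SUL1 rose by 2.37 ± 0.22, while MET3, the first enzyme of sulfate assimilation, was not called (-0.54 ± 0.24, edgeR adjusted p = 0.0777).

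Actin patch genes rose more often than they fell, with 17 of 38 higher and 2 lower. The shares were 44.7% and 5.26%, beside 30.4% and 30.2% of all genes. With the selection material as a term 9 of 38 rose and 0 fell, beside 21.6% and 24% of all genes in that fit. The share that rose was then near that of all genes. In 32 of 38, -GLU RNA replicate 3 lay above both other -GLU libraries. ABP1, an actin-binding patch protein, had a lowest level of 99.1 CPM with glucose and stood at 277, 325 and 555 without, a log2 change of 1.76 ± 0.30 (edgeR adjusted p = 0.000873). The tropomyosins of actin cables, TPM1 and TPM2, were the members that fell, at -0.93 ± 0.35 and -0.89 ± 0.23. Neither fall was called with the selection material as a term (edgeR adjusted p = 0.561 and 0.115). ACT1 itself, actin, was at 1025, 1070 and 1176 CPM with glucose and 1008, 1039 and 1837 without, and was not called (log2 change 0.25 ± 0.34).

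Other groups stayed nearer to the shares of all genes. Of 51 DNA repair and checkpoint genes 13 rose and 12 fell, with a median of 0.18, of 39 vitamin and NAD genes 11 rose and 13 fell, and of 72 transcription factors outside carbon control 20 rose and 14 fell. Fewer members than in all genes changed among 43 vesicle coat, SNARE and exocyst genes (5 higher, 6 lower, median -0.15) and 24 SWI/SNF and SAGA genes (2 higher, 6 lower, median -0.03). Of 26 TORC1 and quiescence genes 8 rose and 1 fell. GIS1, an activator of late growth genes, rose by 2.22 ± 0.28, and the kinase TOR1, at 0.32, was not called. With the selection material as a term the counts higher and lower were 5 and 8 for DNA repair, 8 and 4 for vitamins and NAD, 11 and 11 for these transcription factors, 1 and 4 for vesicle genes, 0 and 3 for SWI/SNF and SAGA, and 4 and 0 for TORC1.

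Genes often used as references for mRNA measurement were mixed too: of 10, 1 rose and 2 fell. TFC1 (97.1 to 121 CPM with glucose, 116 to 138 without), TUB1 and ALG9 were not called. PDA1, of pyruvate dehydrogenase, rose by 1.92 ± 0.36 (edgeR adjusted p = 0.00157), and UBC6 and TAF10 fell, at -0.60 ± 0.19 and -0.62 ± 0.24, changes that were not called with the selection material as a term (adjusted p = 0.102 and 0.701).

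Yeast keeps many enzymes as pairs of duplicate or equivalent genes, and pairs changed hands. Of 76 such pairs, 75 had both members tested. Members were called in opposite directions in 24, both rose in 12 and both fell in 9, in 13 one member rose and the other was not called, in 12 one fell and the other was not called, and in 5 neither was called. Without -GLU RNA replicate 3, 21 of the 24 stayed opposite, with the selection material as a term 10 did, and in the cellulose libraries alone 3 did, among them BAT1 with BAT2 and STD1 with MTH1. None of the 24 pairs has members near-identical to each other.

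In 12 of the 24 pairs, the member that fell held over 50% of the pair's reads per kilobase in every +GLU library and under 50% in every -GLU library. Among branched-chain aminotransferases, the mitochondrial BAT1 held 88.1%, 86.8% and 87.7% of the pair with glucose and 21.9%, 12.3% and 7.57% without. BAT1 fell (-2.26 ± 0.31) and the cytosolic BAT2 rose (3.44 ± 0.49).

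Phosphoglucomutase passed from PGM1, with 83.8% to 89.7% of the pair with glucose, to PGM2, and PGM1 kept 2.79% to 14.6% without. The 6-phosphogluconolactonases of the pentose phosphate pathway passed from SOL3 to SOL4 (97.8% to 98.4% for SOL3 with glucose, 22.3% to 35.4% without). The kinases PSK2 and PSK1, which link nutrients to sugar storage, exchanged places likewise, with PSK2 at 59.3% to 69.3% with glucose and 10.2% to 15.2% without. In some pairs the member that fell stayed the main form: GDH1 held 99.7% to 99.9% of its pair with GDH3 with glucose and 80.1% to 89.2% without, although GDH3 rose by 4.24 ± 0.31. For transketolase the libraries differed, since TKL1 held 96.5%, 94.9% and 42.1% of its pair with TKL2 in the 3 -GLU libraries. With the selection material as a term, the PGM and SOL pairs stayed opposite. The PSK, GDH and TKL pairs were then no longer called in opposite directions.

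**Figure D4:**
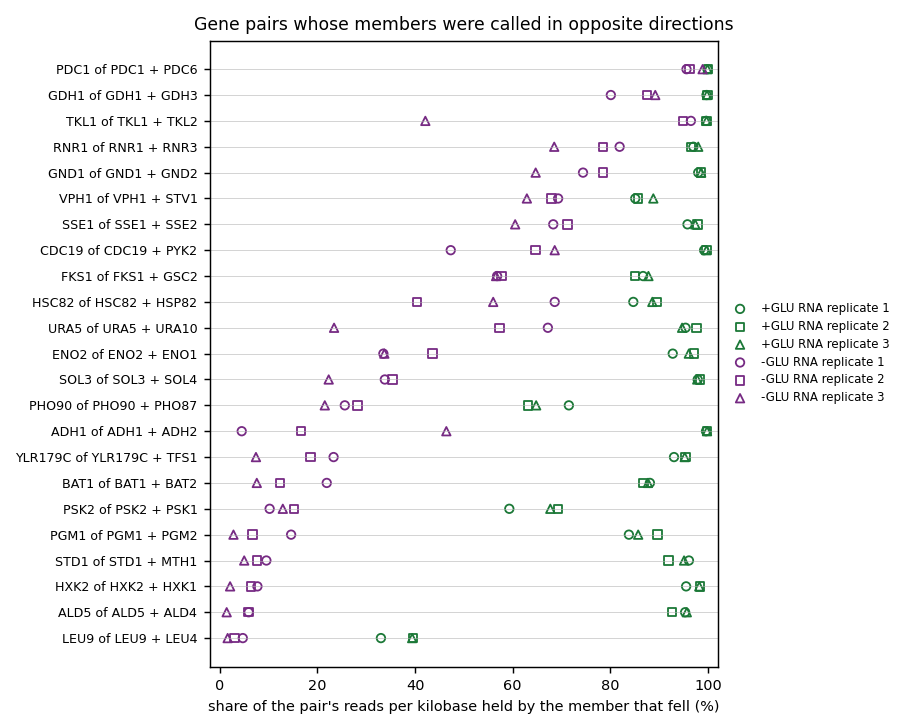
Share of a pair's reads per kilobase (%) held by the member that fell, for 23 of the 24 pairs called in opposite directions, in each of the 6 RNA libraries, with +GLU in green and -GLU in purple and 1 marker shape a replicate. Green points lie to the right of purple points in every pair drawn, from PDC1, which kept over 95% of its pair without glucose, to LEU9, which kept 1.6% to 4.7%.

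Promoters of the genes that rose and fell were read as the 250 bases before the start codon, for 5513 of the genes tested, from the RefSeq genome and annotation R64 of the reference strain, which is not the strain used here. Matches to short motifs of known regulators were counted on both strands as a description, with no test, and 17 motifs were searched. The motifs that differed most were the STRE (AGGGG) of the stress activators Msn2 and Msn4, and the PAC (CGATGAG) and RRPE (AAAATTTT) motifs, which are known from promoters of ribosome assembly genes and bound by the repressors Dot6, Tod6 and Stb3. Of genes that rose, 32.4% held an STRE, against 11.4% of genes that fell and 18.8% of all 6007 promoters. Of genes that fell, 14.8% held a PAC motif and 20.6% an RRPE, against 2.21% and 2.93% of genes that rose and 6.31% and 8.66% of all promoters.

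Outside the same lists the order was alike. An STRE stood in 31.8% of the genes that rose and 11.5% of those that fell, a PAC motif in 1.89% and 11.6%, and an RRPE in 2.67% and 15.5%. Of the 505 tested genes with an RRPE, 67.7% fell and 9.70% rose.

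The following stretches are shown because each group in them moved together and a part of its members held the motif. They are 30 bases long, lie 5′ to 3′ on the strand of the gene, and hold the motif in capitals. PAC in RNA polymerase I genes, present in 4 of 15 promoters, all 4 of genes that fell:
RPA34: aaaaattttatCGATGAGcattgaatagct
RPA49: attttttattgCGATGAGctgaaattttcc
RPA43: tgaaaagattcCGATGAGggtgtatgggtg
RRPE in aminoacyl-tRNA synthetase genes, present in 13 of 21 promoters, all 13 of genes that fell:
THS1: tatcttgctaaAAAATTTTtttcgaggaat
WRS1: caaaacgttgaAAAATTTTttttagtcatt
ILS1: catgatgacgaAAAATTTTttttttttttg
STRE in genes of vacuolar hydrolases, present in 9 of 13 promoters, all 9 of genes that rose:
PBI2: ggggcgggaaaaAGGGGgcatatcagagca
TFS1: tggtatataaaaAGGGGgcagcaagaaacg
ATG42: atgtcaggggacAGGGGttatataagaacg

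Genes of these groups without the motif moved in the same direction. RNA polymerase I genes with a PAC motif had a median log2 change of -2.48 and the others -1.22. Synthetase genes with an RRPE had a median of -1.68 and those without -1.73. Vacuolar hydrolase genes with an STRE had a median of 2.19 and those without 3.06. All GID ligase genes rose, 7 of 10 with an STRE. In tRNA modification genes, 14 of 40 held a PAC motif (10 of them fell) and 12 held an RRPE (all 12 fell).

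Other motifs marked a group whose members did not all move. The MCB motif (ACGCGT) of the G1 activator Mbp1 with Swi6 stood in 23 of 51 DNA replication promoters, against 2.90% of all, and 10 of the 23 genes fell while 13 were not called. The UASINO motif (CATGTGAA) of Ino2 and Ino4 stood in 9 of 30 phospholipid promoters, against 0.599% of all, and 5 of these genes rose, 1 fell and 3 were not called. Stretches from both groups are shown for their motif:
POL30: ccaaaacgcgaaACGCGTaacttttttttt
RAD27: ataggaaacgcgACGCGTaacatcgcgcaa
INO1: aacttatttaaTTCACATGgagcagagaaa
CKI1: atggtataataTTCACATGgtgctctaccg

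The INO1 and CKI1 matches lie on the opposite strand, so the capitals spell the motif's reverse complement. SCB (CGCGAAA), the motif of Swi4, can overlap MCB, and stood in 5.05% of promoters of genes that fell and 1.55% of those that rose. CSRE (CCNNNNNNCGG), of Cat8 and Sip4, stood in 9.68% of promoters of genes that rose and 6.98% of those that fell. The shares of genes that rose and genes that fell lay closer for GCRE (TGACTC, 7.47% and 6.55%), CBF (CACGTG, 2.69% and 2.65%), HAP (CCAAT, 37.5% and 33.5%), PRE (TGAAACA, 5.02% and 6.07%), SRE (TCGTATA, 4.36% and 3.85%), SWI5 (ACCAGC, 5.62% and 5.47%), BAS1 (TGACTA, 10.6% and 9.38%) and UASINO (0.657% and 0.661%). URS1 (GGCGGC) stood in 4.54% and 2.53%, PACE (GGTGGCAA) in 1.19% and 0.782%, and PDRE (CCGCGG) in 1.37% and 0.902%. In genes not called the shares were 4.78%, 2.62% and 1.01%. URS1 was thus scarcer in genes that fell but not more frequent in genes that rose, and PACE was scarcer in both. A match in the window of 1 gene can belong to a neighbour that is read from the other strand.

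**Figure D5:**
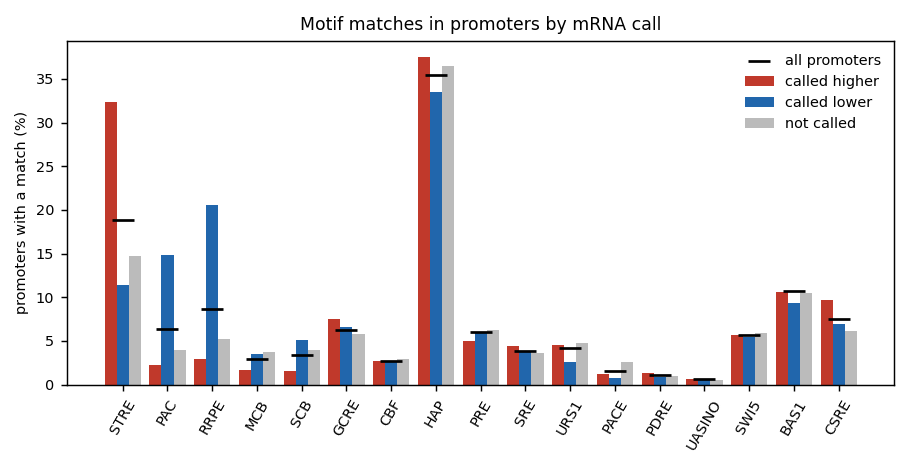
Share of promoters with at least 1 match (%, vertical axis) for each of 17 motifs, in genes called higher (red), called lower (blue) and not called (grey), with the share of all annotated promoters as a black line. STRE matches were most frequent in genes called higher, at 32.4%, and PAC and RRPE matches in genes called lower, at 14.8% and 20.6%.

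Position and length were also read. Of the 252 tested genes among the 10 measured genes nearest each chromosome end, 37.7% rose and 19.8% fell, against 30.0% and 30.7% of all other genes, and genes near ends often belong to families with similar copies. In the shortest of 5 equal bins of genes by coding length 27% rose and 38.7% fell, and in the longest 33.4% rose and 20.7% fell. The counted region was 2 nt longer than the coding sequence in +GLU RNA replicate 1 and -GLU RNA replicate 3 and 24 nt shorter in the other RNA libraries, so each state holds 1 library with the longer region.

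Ribosome footprints of the same states gave a second readout from other libraries of the same series. Of 5319 genes tested for footprints, 33.8% were higher without glucose and 31% lower. Of 1640 genes whose mRNA rose and whose footprints were tested, footprints of 1307 were higher and those of 14 lower. Of 1622 genes whose mRNA fell, footprints of 1262 were lower and those of 34 higher. The footprints of groups that rose were POX1 at 9.96, ATG39 at 7.21 and GID11 at 6.06 on the log2 scale, and of those that fell KRS1 at -4.20, URA1 at -4.60 and HO at -7.68.

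Some members differed between the readouts, and the difference was not tested. Among genes of the groups above, BBC1 and ABP1 of actin patches stood at 2.11 and 1.76 in mRNA and at 0.97 and 0.45 in footprints, ACT1 at 0.25 and -1.29, and CDC6 at -2.37 and -0.44. The actin patch group had 17 of 38 genes higher in mRNA and 6 of 38 higher in footprints. Vesicle coat, SNARE and exocyst genes had 6 of 43 lower in mRNA and 25 of 43 lower in footprints, and nuclear pore and karyopherin genes 17 and 32 of 45.

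Without -GLU RNA replicate 3, 29.6% of genes were called higher and 29.7% lower, and 3125 of the 3343 calls were shared. Some of the group counts given above then moved by 1.5 times or more. Among rises they were of pyrimidine genes (4 in place of 1), purine genes (1 in place of 2) and tRNA modification genes (1 in place of 0). Among falls they were of permeases (5 in place of 3), glycerol and osmosensing genes (6 in place of 4) and actin genes (3 in place of 2).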

How the data were processed

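RNA was sequenced from 3 +GLU and 3 -GLU libraries, grouped by their titles. The authors deposited counts per gene and RPKM values, while the sources used here name no aligner, genome build, strand setting or counting tool. Counts were used as deposited. The deposited columns of -GLU RNA replicates 1 and 2 are expected counts by unit, because they hold a value that is not whole for YPR203W, which was left out of all libraries, and nothing was rounded. The RPKM values that the authors deposited served to read the length over which each library was counted. Depth allows a floor of 3 counts, or 0.239 to 1.24 CPM before scaling, and covers counting error only.

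The test for each gene was that of edgeR 4.0.16 (R 4.3.3, filterByExpr with a minimum count of 10, TMM factors, quasi-likelihood F test, Benjamini-Hochberg adjustment over all genes at 0.05), after the code had been tested on simulated data. SE is the log2 change divided by the square root of F. Alternatives were DESeq2 1.42.0, other scalings, no filter on low counts, the selection material as a term, the cellulose libraries alone, libraries of 1 counted length, near-identical genes summed, a block for the replicate number, and each library left out. Footprint libraries with cycloheximide were tested in the same way.

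Symbols, coding lengths and promoters came from RefSeq R64, in which 5698 gene IDs were found and 5 were not. With BLAST+ 2.17.0, 145 genes had a copy at 95% identity or more over 80% of the shorter sequence, and 68 genes overlapped another coding sequence. Tables and figures were made with Python 3.11.15, pandas 2.3.3 and matplotlib 3.10.9.

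Named genes were the 12 largest rises and 12 largest falls among called genes with a standard name outside the ribosome, translation, respiration, tricarboxylic acid cycle, glycolysis, gluconeogenesis and stress lists whose states did not overlap and whose higher state averaged at least 20 CPM, the 2 largest changes per direction in each group, called carbon regulators, pairs called in opposite directions, reference genes and the 10 most abundant mRNAs per state. Genes outside this rule, such as pathway partners and members that were not called, were chosen after their values were seen. The comparison, the gene groups, the pairs and the motifs were chosen with earlier results of these data known. Of the pairs called in opposite directions, 1 is counted but not reported here by name.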

Additional observations from a re-analysis of the deposited data

How the results depend on the processing

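Of 3343 called genes, 1633 were called in all 16 alternatives, 7 took the other sign in at least 1 of them and 0 were called in the opposite direction. In the cellulose libraries alone, where +GLU RNA is a single library assumed to vary like the others, 1764 genes were called, 869 higher and 895 lower. With the selection material as a term 2518 were called, 1193 higher and 1325 lower. Scaling by total counts gave 1755 higher and 1396 lower. Leaving out each library in turn gave 2772 to 3378 called genes. With a replicate block 3134 genes were called, 1567 in each direction. Libraries of equal number did not deviate together from the means of their states (correlations of -0.09, -0.15 and -0.01). This gave no sign of pairing but cannot exclude it. The +GLU libraries also differ in selection material and -GLU RNA replicate 3 stands apart from its group, which could hide a pairing. The causes of these shifts were not tested. Genes under the count minimum, 184 in all, have no result.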
